A study of Mus musculus and Homo sapiens with 24 samples.

Results

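The genes described are the 10 globin genes of the human alpha-globin and beta-globin clusters, *HBZ*, *HBM*, *HBA2*, *HBA1*, *HBQ1*, *HBE1*, *HBG2*, *HBG1*, *HBD* and *HBB*, taken by name from the 58721 genes in the count files. Of the 10, 8 passed the filter on low counts and were tested. *HBM* and *HBB* did not. The samples were 12 RNA-seq libraries of K-562, a cell line established from a chronic myeloid leukaemia, in 4 groups of 3 libraries: *TET2* WT cells with shControl, *TET2* WT cells with shMBD6, *TET2* KO cells with shControl and *TET2* KO cells with shMBD6. TET2 oxidises 5-methylcytosine, and MBD6 is a protein of the methyl-CpG-binding domain family. The cells of all 4 groups carried a lentiviral short hairpin construct and were kept under puromycin, and 1 hairpin against *MBD6* was used. The WT and *TET2* KO lines were made before this study, and the sources used here do not say whether the KO line is 1 clone, so the KO groups are described as the labels give them. The other 12 libraries of the series were from mouse cells and were not used here.

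Haemoglobin is built from a pair of alpha-type and a pair of beta-type globin chains. The alpha-type genes lie in a cluster near the end of the short arm of chromosome 16 and hold the embryonic zeta gene *HBZ*, the alpha genes *HBA2* and *HBA1* used in fetal and adult life, and *HBM* and *HBQ1*, whose products are minor or of unclear use. The beta-type genes lie on chromosome 11 in the order of their use in development, from the embryonic epsilon gene *HBE1* through the fetal gamma genes *HBG2* and *HBG1* to the adult delta gene *HBD* and beta gene *HBB*. K-562 cells are known for making embryonic and fetal globins and little or no beta-globin. A distal enhancer in each cluster, erythroid factors such as GATA1 and KLF1, and repressors of the fetal genes such as BCL11A and ZBTB7A control which gene is used.

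Promoters of 3 kinds are shown because they set the fetal genes, which carried most globin counts here, beside an embryonic and an adult beta-type gene. Each is the 150 bases before the first base of the main transcript in hg38, read on the strand of the gene, with capitals marking matches to the letters CCACCC, a box bound by factors of the KLF family, to CCAAT, a box bound by NF-Y, to TGACCA, the motif bound by BCL11A, and to ATAAAA, which resembles the box bound by TBP. The *HBG1* sequence (chr11:5249858-5250007, minus strand) stands for *HBG2* too (chr11:5254782-5254931, minus strand), since both are identical over the 222 bases before the start.
HBG1: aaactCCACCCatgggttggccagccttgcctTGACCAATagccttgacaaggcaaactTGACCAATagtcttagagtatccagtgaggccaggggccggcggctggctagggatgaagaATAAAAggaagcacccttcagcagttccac
HBE1: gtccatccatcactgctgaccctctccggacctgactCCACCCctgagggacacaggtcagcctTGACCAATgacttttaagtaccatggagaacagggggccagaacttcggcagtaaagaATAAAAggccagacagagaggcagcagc
HBB: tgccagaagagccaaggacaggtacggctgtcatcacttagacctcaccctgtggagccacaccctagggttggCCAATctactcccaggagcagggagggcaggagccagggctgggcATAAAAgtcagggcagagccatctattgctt

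The *HBE1* sequence lies at chr11:5269946-5270095 (minus strand) and that of *HBB* at chr11:5227072-5227221 (minus strand). The gamma promoters held CCAAT at 115 and at 88 bases before the start, each overlapped by a TGACCA match that began 118 and 91 bases before it. The epsilon promoter held a single such pair, with TGACCA at 86 and CCAAT at 83 bases before the start. The beta promoter held CCAAT at 76 bases and no TGACCA. Searched on both strands over the 250 bases before 20033 protein-coding genes, CCAAT was present in 34.3% of promoters, CCACCC in 35.4%, ATAAAA in 11.4% and TGACCA in 7.8%. The letters AGATAA, which erythroid factors of the GATA1 family bind, were present in 6.55% and, among the globin genes, in the promoter of *HBD* alone. These matches describe the letters in the window and not the binding of a factor. Only exact letters were searched, so a promoter without a match may still hold a variant of that box.

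The counting of these genes is limited by near-identical copies and by overlapping genes. The main transcripts of *HBG1* and *HBG2* were identical at 99.1% of aligned positions and those of *HBA1* and *HBA2* at 96.5%, and only reads placed at 1 site were counted. Of the windows of 50 bases along each main transcript, 18.4% of *HBA1*, 18.2% of *HBA2*, 9.29% of *HBG1* and 19.6% of *HBG2* were both absent from the other globin genes and free of the exons of another gene. The order of the gamma copies depends on the window. With 100 bases the shares were 18.2% for *HBG1* and 11.5% for *HBG2*, and with 150 bases 20.3% and 1.37%. For *HBE1* the number was 0 of 574 windows, since 570 of its 623 bases also belong to an annotated read-through gene, ENSG00000239920.2, that spans several beta-type genes and received 35 to 94 counts per library. The same read-through gene overlaps 268 bases of *HBG2*, and a further one, ENSG00000284931.1, with 0 counts in all 12 libraries, overlaps 431 bases of *HBG2* and 218 of *HBG1*. *HBZ* shares 205 bases with an annotated exon of *HBM*. These shares and the gene positions given below are those of main transcripts, while the counts cover every annotated exon of a gene. *HBG1* has 1467 bases of annotated exon against 587 in its main transcript, *HBG2* 841 against 586 and *HBE1* 961 against 623. In the annotation used here, *HBZ*, *HBM*, *HBE1*, *HBG2*, *HBD* and *HBB* extend beyond the positions given. Values of *HBA1*, *HBA2*, *HBG1*, *HBG2* and *HBE1* are therefore uncertain as levels, and a fold change rests on the few positions that tell the copies apart. The split of counts between a pair of copies can also differ from that of their transcripts.

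**Figure D1:**
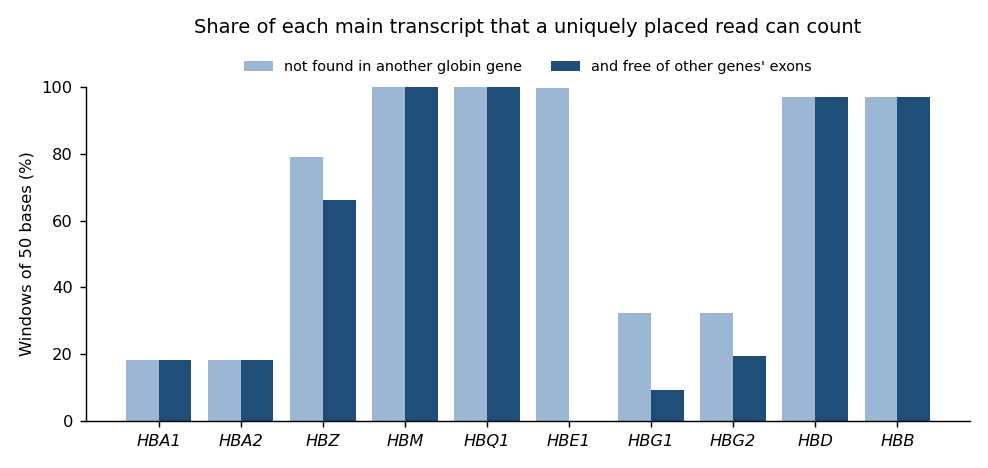
Share of 50-base windows of each main transcript (vertical axis, percent) that occur in no other globin gene (light bars) and that are also free of the exons of other genes in the files (dark bars). The alpha and gamma copies have dark bars of 9.29% to 19.6%, that of *HBE1* is at 0, and *HBM* and *HBQ1* are at 100%.

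Each library held 27625013 to 39877202 counts on genes. The hairpin lowered its target: *MBD6* was at 82.5 ± 5.59 CPM (gene counts scaled to library size after TMM normalisation, given as mean ± SD, n = 3) in WT shControl, 38.0 ± 1.09 in WT shMBD6, 77.2 ± 4.59 in KO shControl and 43.3 ± 0.799 in KO shMBD6. *TET2* was at 28.4 to 37.8 CPM in all libraries, and its counts do not check the genotype. Replicate 3 of KO shMBD6 stood apart, with a chi-square per degree of freedom of 10.1 and 8.31 against the other 2 libraries of its group and 3.03 to 5.65 in all other replicate pairs. The ERCC spike-in counts were 0.872% to 0.882% of gene counts in WT shControl and 0.320% to 0.397% in the other groups. All 10 erythroid markers reached 1 CPM in at least 1 library, with a summed level of 2512 to 2610 CPM in WT shControl, 3275 to 3594 in WT shMBD6, 1371 to 1433 in KO shControl and 1349 to 1354 in KO shMBD6. This sum includes the globin genes *HBG1*, *HBG2* and *HBZ*. *HBG2* alone had a mean of 1499, 2251, 463 and 558 CPM in the same order, so the sum does not describe erythroid markers apart from the globin genes. The labels call the cells lymphoblasts, and 7 of 10 lymphoid markers, *CD79A*, *MS4A1* and *CD8A* among them, stayed under 1 CPM in every library. Their summed level was 7.98 to 17.4 CPM. Of the megakaryocytic markers 8 of 12 stayed under 1 CPM, with a summed level of 141 to 150 CPM in WT shControl, 94.7 to 94.8 in WT shMBD6, 61.2 to 68.3 in KO shControl and 59.3 to 63.6 in KO shMBD6. Of the granulocytic and monocytic markers 8 of 13 stayed under 1 CPM, with 43.1 to 61.9 CPM in all. Their part in the globin results was not tested.

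Per kilobase of annotated exon, gamma-globin *HBG2* was the highest globin gene in every group. Its level was 1782 ± 34.6 RPKM in WT shControl, 2677 ± 190 in WT shMBD6, 551 ± 29.8 in KO shControl and 663 ± 2.54 in KO shMBD6. In WT shControl it was followed by *HBA1* at 92.2 ± 2.09, *HBZ* at 77.2 ± 1.78, *HBG1* at 66.5 ± 22.7, *HBQ1* at 34.4 ± 1.52 and *HBA2* at 5.72 ± 1.04 RPKM. *HBD* at 0.590 ± 0.239, *HBE1* at 0.525 ± 0.431 and *HBB* at 0.0217 ± 0.0197 RPKM were the lowest with counts, and *HBM* had 0 counts in all 12 libraries. The levels of *HBZ* and *HBG1* lay within their spread, as did those of *HBD* and *HBE1*. This order depends on the length used: per kilobase of the main transcript alone, *HBG1* came second in WT shControl at 166 ± 56.7 RPKM, ahead of *HBA1* at 133 ± 3.03 and *HBZ* at 112 ± 2.59, with a spread that spans the level of *HBA1*, and its share of the per-length globin level went from 3.21% to 5.47%. *HBG2* made up 86.6% ± 0.638 of the per-length globin level in WT shControl, 84.9% ± 0.872 in WT shMBD6, 81.2% ± 1.27 in KO shControl and 81.9% ± 0.657 in KO shMBD6, a share that is set in part by how many positions of each gene can be counted. Counts on the 10 globin genes were 0.174% to 0.185% of all gene counts in WT shControl, 0.258% to 0.290% in WT shMBD6, 0.0587% to 0.0620% in KO shControl and 0.0691% to 0.0713% in KO shMBD6. The 4 ranges did not overlap.

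Globin counts were lower in *TET2* KO than in WT cells, higher with shMBD6 in WT cells, and for 4 genes the change with shMBD6 was smaller in KO than in WT cells. These and the following fold changes are relative to the median of all genes, which TMM scaling sets near 0, and the separate account of the spike-in scaling gives the genes whose direction it turns. According to the paper's methods, its own size factors took in a factor from the spike-in reads. In KO against WT cells with shControl, 6 of the 8 tested globin genes fell and none rose, with a median log2 fold change of -1.16 against 0.0045 over all 17936 genes tested, of which 20.7% fell and 22.2% rose. *HBA1*, *HBG1* and *HBQ1*, which are among these 6, had the opposite sign under spike-in scaling, and *HBA2* kept its sign but did not pass the threshold there. In KO against WT cells with shMBD6 it was again 6 lower and 0 higher, with a median of -1.61, where 21.6% of all genes fell and 22.9% rose. With shMBD6 in WT cells 5 globin genes rose and none fell, with a median of 0.55, where 20.4% of all genes rose and 19.2% fell. With shMBD6 in KO cells 2 rose and 1 fell, with a median of 0.14, where 18.5% of all genes rose and 16.3% fell. The difference between the effects of shMBD6 in KO and in WT cells was negative past the threshold in 4 of 8, with a median of -0.47, where 11.0% of all genes were negative and 10.3% positive past it. These comparisons share groups of libraries, so their values for a gene are not independent. The 8 genes also hold the near-identical alpha and gamma copies as separate genes. With each pair summed, 4, 4, 3, 3 and 3 of 6 passed in the order of the comparisons above. In bulk RNA, fewer cells making a globin and less globin RNA per cell cannot be told apart.

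**Figure D2:**
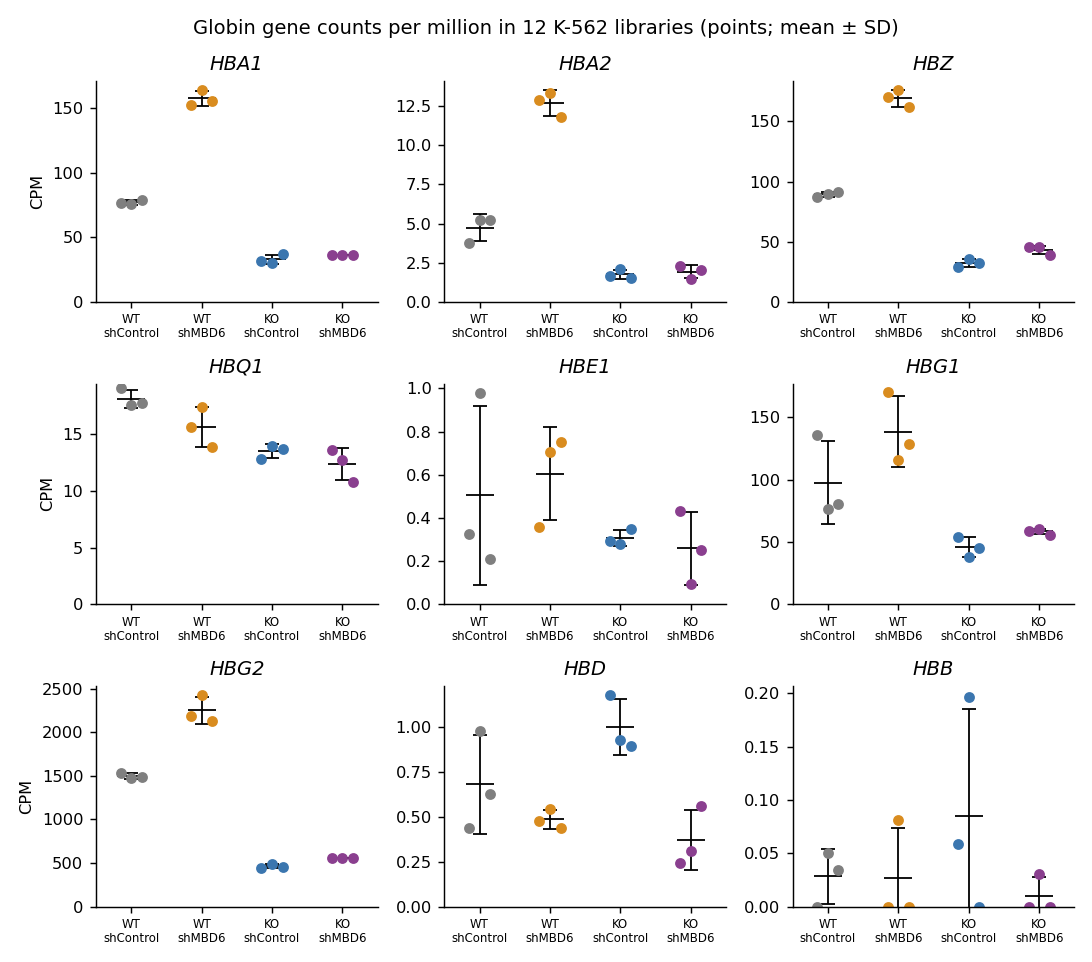
CPM of 9 globin genes (vertical axes, each starting at 0) in the 3 libraries of each K-562 group (points), with the mean and SD (bars). *HBA1*, *HBA2*, *HBZ* and *HBG2* are highest in the WT shMBD6 libraries and low in both KO groups, while *HBE1*, *HBD* and *HBB* lie near the detection limit, and *HBM*, at 0 counts, is not drawn.

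Of the fetal genes, *HBG2* (chr11:5253188-5254781, minus strand, 3 exons) had 1532, 1477 and 1488 CPM in the WT shControl libraries and 2186, 2433 and 2135 in WT shMBD6. It had 447, 492 and 450 CPM in KO shControl and 559, 559 and 555 in KO shMBD6. No pair of groups overlapped. *HBG2* was 3.24-fold lower in KO than in WT cells with shControl (log2 fold change -1.70, SE 0.04, adjusted p = 8.17e-18, edgeR) and 4.04-fold lower with shMBD6 (-2.01, SE 0.04, adjusted p = 6.37e-19). With shMBD6 it rose 1.5-fold in WT cells (log2 0.59, SE 0.04, adjusted p = 5.01e-10) and 1.2-fold in KO cells (log2 0.27, SE 0.04, adjusted p = 2.90e-05).

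The neighbouring copy *HBG1* (chr11:5248269-5249857, minus strand) had 136, 76.3 and 80.4 CPM in WT shControl, 171, 116 and 129 in WT shMBD6, 54.2, 37.9 and 45.2 in KO shControl and 58.8, 60.3 and 55.9 in KO shMBD6. The library numbered 1 was the highest in each of the first 3 groups, and the 2 WT groups overlapped. *HBG1* fell in KO cells, 2.12-fold with shControl (log2 -1.09, SE 0.17, adjusted p = 1.99e-05), where spike-in scaling turned the sign, and 2.37-fold with shMBD6 (log2 -1.25, SE 0.16, adjusted p = 2.42e-06). With shMBD6 in WT cells its log2 fold change was 0.51 (SE 0.16, adjusted p = 0.0148). This call was lost without WT shControl replicate 2 (log2 0.36, adjusted p = 0.114), without WT shControl replicate 3 (0.39, adjusted p = 0.0999), without WT shMBD6 replicate 1 (0.33, adjusted p = 0.135), and in DESeq2 (adjusted p = 0.128). In KO cells the value with shMBD6 was 0.35 (SE 0.17, adjusted p = 0.123), and it passed the threshold in some of the alternatives. Among these were spike-in scaling (0.54, adjusted p = 0.0072), the fit without WT shControl replicate 1 (0.35, adjusted p = 0.0308) and the fit with a replicate block. Over the edgeR and DESeq2 alternatives other than spike-in scaling, the adjusted p for *HBG1* in KO cells ran from 3.78e-10 to 0.436. With the gamma copies summed, the log2 fold changes were -1.65 and -1.96 for KO against WT with shControl and with shMBD6, and 0.58 and 0.28 for shMBD6 in WT and KO cells, all past the threshold, the last with an adjusted p of 8.06e-06.

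The share of *HBG1* in the summed counts of *HBG1* and *HBG2* was 8.15%, 4.91% and 5.13% in WT shControl and 7.23%, 4.55% and 5.68% in WT shMBD6. It was 10.8%, 7.16% and 9.14% in KO shControl and 9.52%, 9.74% and 9.14% in KO shMBD6. The KO shMBD6 share lay above that of every WT library, while KO shControl overlapped both WT groups. With 3 against 3 libraries an exact permutation test of such a share cannot give a p below 0.1.

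The embryonic gene *HBZ* (chr16:152644-154503, plus strand, 3 exons) had 87.5, 89.5 and 91.6 CPM in WT shControl and 170, 176 and 162 in WT shMBD6. It had 28.8, 35.8 and 32.3 CPM in KO shControl and 45.2, 45.2 and 39.2 in KO shMBD6. No pair of groups overlapped. It was 2.77-fold lower in KO than in WT cells with shControl (log2 -1.47, SE 0.06, adjusted p = 1.21e-13) and 3.92-fold lower with shMBD6 (log2 -1.97, SE 0.06, adjusted p = 6.94e-16). It rose with shMBD6 in both genotypes, 1.89-fold in WT cells (log2 0.92, SE 0.06, adjusted p = 2.44e-10) and 1.34-fold in KO cells (log2 0.42, SE 0.07, adjusted p = 4.84e-05).

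The other embryonic gene, *HBE1* (chr11:5268345-5269945, minus strand), was barely counted. It had 9, 39 and 6 counts in WT shControl, 12, 26 and 26 in WT shMBD6, 10, 10 and 11 in KO shControl and 16, 3 and 9 in KO shMBD6. All groups overlapped in CPM except KO shControl with WT shMBD6, and no comparison passed the threshold under TMM scaling with all libraries. With shMBD6 in WT cells it passed under spike-in scaling (log2 1.34, adjusted p = 0.0203). For KO against WT cells the 95% interval of the log2 fold change ran from -1.97 to 0.42 with shControl and from -2.40 to -0.02 with shMBD6 (adjusted p = 0.0923), where it passed without KO shMBD6 replicate 1 (-1.78, adjusted p = 0.0425). Since no 50-base window of the main *HBE1* transcript is free of the read-through gene, these counts give no level for epsilon-globin.

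The alpha gene *HBA1* (chr16:176680-177522, plus strand, 3 exons) had 76.2, 75.8 and 79.0 CPM in WT shControl and 153, 164 and 156 in WT shMBD6. It had 31.6, 30.2 and 36.9 CPM in KO shControl and 36.5, 36.1 and 36.2 in KO shMBD6, and the KO groups overlapped. It was 2.34-fold lower in KO than in WT cells with shControl (log2 -1.23, SE 0.06, adjusted p = 2.85e-13), a difference of 0.03 under spike-in scaling, and 4.34-fold lower with shMBD6 (log2 -2.12, SE 0.06, adjusted p = 3.56e-17). With shMBD6 it rose 2.04-fold in WT cells (log2 1.03, SE 0.05, adjusted p = 7.67e-12). In KO cells the log2 fold change was 0.14 (95% interval 0.02 to 0.27, adjusted p = 0.0671), and without KO shControl replicate 3 it was 0.23 with an adjusted p of 0.0014. Under spike-in scaling it was 0.32 (adjusted p = 0.00033).

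Its copy *HBA2* (chr16:172876-173710, plus strand) had 3.73, 5.19 and 5.25 CPM in WT shControl, 12.9, 13.4 and 11.8 in WT shMBD6, 1.62, 2.08 and 1.53 in KO shControl and 2.26, 1.45 and 2.01 in KO shMBD6. WT shMBD6 was the highest group and the KO groups overlapped. The log2 fold change in KO against WT cells was -1.44 (SE 0.18, adjusted p = 8.89e-07) with shControl and -2.73 (SE 0.16, adjusted p = 2.00e-11) with shMBD6. Under spike-in scaling the value with shControl was -0.19 (adjusted p = 0.319), not past the threshold. *HBA2* rose 2.67-fold with shMBD6 in WT cells (log2 1.42, SE 0.15, adjusted p = 1.96e-07). In KO cells the value was 0.13 (95% interval -0.27 to 0.53, adjusted p = 0.638). With the alpha copies summed, the levels were 81.7 ± 2.26, 170 ± 6.53, 34.6 ± 3.35 and 38.2 ± 0.648 CPM in the order of the 4 groups above.

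Of the adult beta-type genes, *HBD* (chr11:5232838-5234483, minus strand) had 12, 39 and 18 counts in WT shControl, 16, 20 and 15 in WT shMBD6, 40, 33 and 28 in KO shControl and 9, 10 and 20 in KO shMBD6. In CPM, KO shControl lay above KO shMBD6 without overlap and overlapped WT shControl. *HBD* was 2.69-fold lower with shMBD6 in KO cells (log2 -1.43, SE 0.40, adjusted p = 0.0073), and this call held with each library left out in turn, with adjusted p-values up to 0.0398. Its log2 fold change in KO against WT cells was 0.52 (95% interval -0.25 to 1.30, adjusted p = 0.277) with shControl and -0.39 (-1.27 to 0.49, adjusted p = 0.483) with shMBD6. With shMBD6 in WT cells it was -0.51 (-1.34 to 0.31, adjusted p = 0.33). Under spike-in scaling the value of *HBD* for KO against WT cells with shControl was 1.77 (adjusted p = 0.00012), past the threshold. *HBB* (chr11:5225464-5227071, minus strand), the adult beta gene, had 16 counts in all, in 6 of 12 libraries, with at most 7 in one of them, and was not tested.

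The theta gene *HBQ1* (chr16:180459-181179, plus strand), every 50-base window of which could be counted, varied least among the 6 genes with the most counts. It had 19.1, 17.6 and 17.8 CPM in WT shControl, 15.7, 17.5 and 13.9 in WT shMBD6, 12.9, 14.0 and 13.8 in KO shControl and 13.6, 12.8 and 10.8 in KO shMBD6. It was 1.34-fold lower in KO than in WT cells with shControl (log2 -0.42, SE 0.10, adjusted p = 0.0011), with the sign turned to 0.83 under spike-in scaling, and 1.27-fold lower with shMBD6 (log2 -0.34, SE 0.10, adjusted p = 0.0066). With shMBD6 the log2 fold change was -0.21 (adjusted p = 0.0848) in WT cells, or -0.29 (adjusted p = 0.0337) without WT shMBD6 replicate 2, and -0.13 (adjusted p = 0.338) in KO cells. *HBM* (chr16:165978-166764, plus strand) had 0 counts in all 12 libraries, which allows up to 3 counts or 0.0753 to 0.109 CPM per library, for counting error only.

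**Figure D3:**
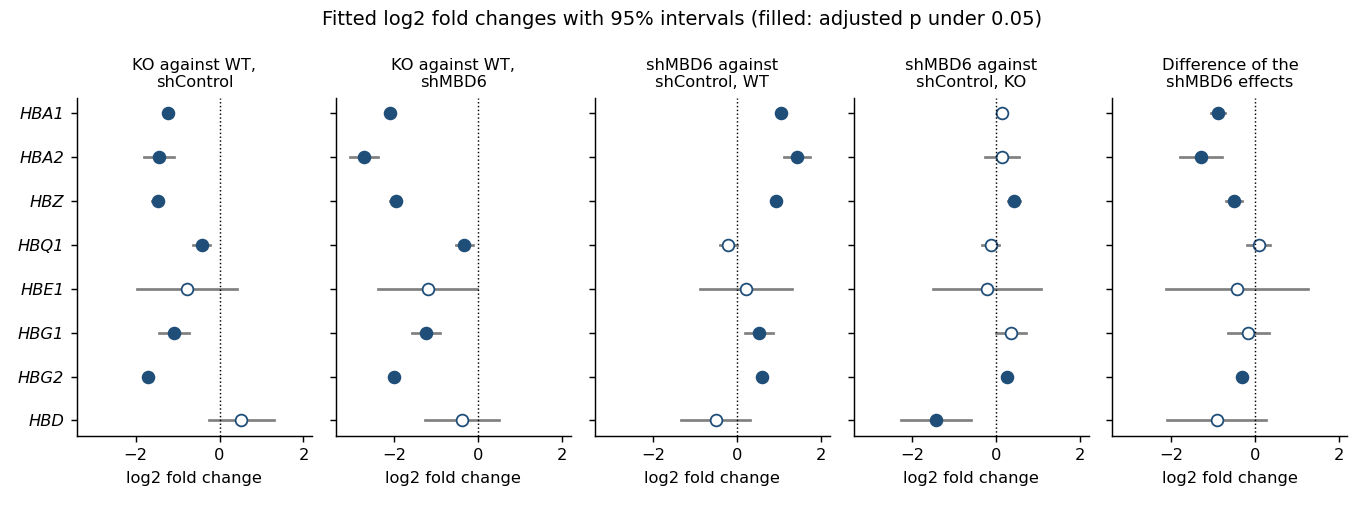
Fitted log2 fold change (horizontal axis) of the 8 tested globin genes with 95% intervals, in 5 panels for KO against WT with each hairpin, shMBD6 against shControl in each genotype, and the difference of the shMBD6 effects. Filled points passed an adjusted p of 0.05: 6, 6, 5, 3 and 4 genes from left to right, and the widest intervals are those of *HBE1* and *HBD*.

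The effect of shMBD6 was smaller in KO than in WT cells for *HBA2* (difference of log2 fold changes -1.29, SE 0.24, adjusted p = 0.00063), *HBA1* (-0.89, SE 0.08, adjusted p = 1.11e-07), *HBZ* (-0.50, SE 0.09, adjusted p = 0.00036) and *HBG2* (-0.32, SE 0.06, adjusted p = 0.00038). All 4 remained past the threshold with each library left out, replicate 3 of KO shMBD6 included. For *HBG1* the difference was -0.16 (95% interval -0.65 to 0.33, adjusted p = 0.684), for *HBQ1* 0.08 (-0.20 to 0.37, adjusted p = 0.72), and for *HBD* -0.91 (-2.09 to 0.25, adjusted p = 0.271). The reduction of *MBD6* itself was also smaller in KO cells, 1.79-fold against 2.17-fold, with a difference of 0.28 (SE 0.08, adjusted p = 0.0104), and its part in the globin differences was not tested.

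Ratios between globin genes within a library do not depend on the scaling. Counts on *HBG1* and *HBG2* together were 8.92 to 9.96 times those on *HBZ*, *HBA1* and *HBA2* in WT shControl. The ratio was 6.87 to 7.21 in WT shMBD6, 7.0 to 8.09 in KO shControl and 7.36 to 7.90 in KO shMBD6. The WT shControl libraries lay above all others. Counts on embryonic *HBZ* per count on *HBA1* and *HBA2* were 1.09 to 1.11 in WT shControl, 0.967 to 1.03 in WT shMBD6, 0.839 to 1.11 in KO shControl and 1.03 to 1.20 in KO shMBD6, with overlap between the genotypes. The share of *HBA2* in the alpha counts was 7.05% to 7.81% in WT shMBD6, above the 4.67% to 6.41% in WT shControl, 3.97% to 6.44% in KO shControl and 3.86% to 5.83% in KO shMBD6.

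Scaling to the ERCC spike-ins, whose share of counts was highest in WT shControl, shifted the median of all genes to 1.26 for KO against WT with shControl, 0.31 with shMBD6, 1.13 for shMBD6 in WT cells, 0.18 in KO cells and -0.95 for the difference of the shMBD6 effects. Of all 17936 genes, 16181, 10747, 15475, 7924 and 13321 passed the threshold under this scaling, in the same order. For KO against WT with shControl, *HBG2* was then at -0.44 (adjusted p = 4.32e-09) and *HBZ* at -0.21 (adjusted p = 0.008). *HBA1* was at 0.03 (adjusted p = 0.658), *HBA2* at -0.19 (adjusted p = 0.319) and *HBG1* at 0.17 (adjusted p = 0.302), while *HBQ1* was at 0.83 (adjusted p = 4.78e-08) and *HBD* at 1.77 (adjusted p = 0.00012). Relative to the shifted median these were -1.70 for *HBG2*, -1.47 for *HBZ*, -1.23 for *HBA1*, -1.45 for *HBA2* and -0.43 for *HBQ1*. With shMBD6 in both genotypes, KO cells kept lower values of *HBG2* (-1.72), *HBZ* (-1.67), *HBA1* (-1.82), *HBA2* (-2.43) and *HBG1* (-0.95), all past the threshold, and *HBQ1* was at -0.04 (adjusted p = 0.752). For shMBD6 in WT cells *HBA2* was at 2.56, *HBA1* at 2.17, *HBZ* at 2.06, *HBG2* at 1.73, *HBG1* at 1.65, *HBE1* at 1.34 and *HBQ1* at 0.93, all past the threshold, the last with the opposite sign to that under TMM scaling. With shMBD6 in KO cells 5 passed: *HBZ* at 0.60, *HBG1* at 0.54, *HBG2* at 0.45 and *HBA1* at 0.32 were higher and *HBD* at -1.25 was lower, where *HBG1* and *HBA1* had not passed under TMM scaling. For the difference of the shMBD6 effects *HBG1* (-1.11), *HBQ1* (-0.88) and *HBD* (-1.87) passed besides the 4 genes above.

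**Figure D4:**
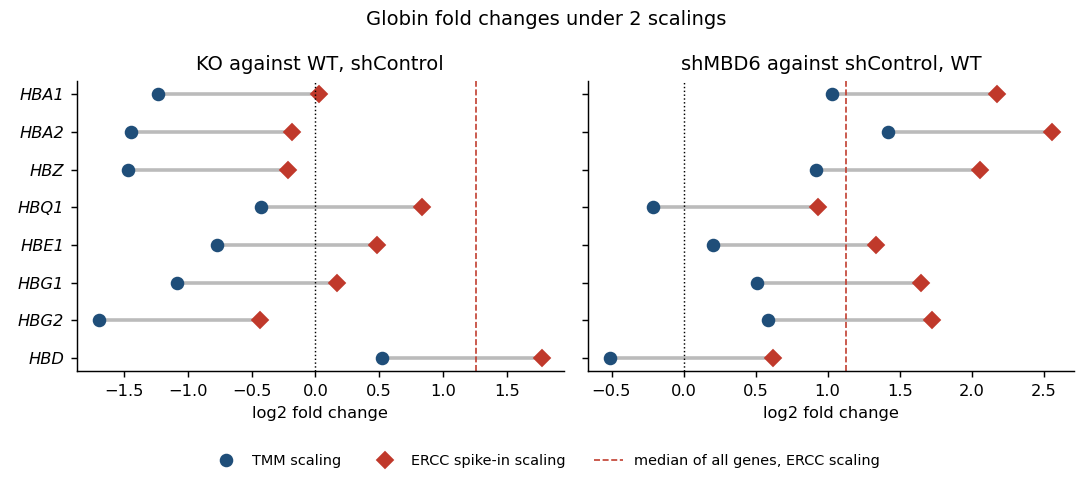
Log2 fold change (horizontal axis) of the 8 tested globin genes under TMM scaling (circles) and ERCC spike-in scaling (diamonds), for KO against WT with shControl and for shMBD6 in WT cells. The dashed lines mark the median of all genes under spike-in scaling, 1.26 and 1.13, and every gene moves to the right by about that amount, which takes *HBA1*, *HBG1*, *HBQ1* and *HBE1* across 0 in the left panel and *HBQ1* and *HBD* in the right one.

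Among 38 regulators of the globin genes, 37 were tested, and these and the following lists were tested under TMM scaling only. *BCL11A*, the repressor of fetal globin, had at most 12 counts in a library and was not. In KO against WT cells with shControl 13 were lower and 7 higher (median log2 fold change -0.02), and with shMBD6 22 were lower and 6 higher (median -0.15). With shMBD6, 9 were higher and 10 lower in WT cells (median 0.02) and 7 higher and 11 lower in KO cells (median 0.00). Over all genes tested, 20.7% were lower and 22.2% higher in KO cells with shControl, 21.6% and 22.9% with shMBD6, and with shMBD6 19.2% were lower and 20.4% higher in WT cells and 16.3% and 18.5% in KO cells. The regulators higher in KO cells with shControl, and those higher with shMBD6 in either genotype, made up fractions of the list near these. *LMO2*, which bridges DNA-binding factors at erythroid enhancers, was at 92.03 ± 1.00 CPM in WT shControl and 55.2 ± 2.13 in WT shMBD6, 35.7 ± 1.38 in KO shControl and 28.1 ± 0.0569 in KO shMBD6, and was lower in KO cells with both hairpins (log2 -1.37 and -0.97) and with shMBD6 in WT cells (-0.74). *ZFPM1*, the GATA1 partner FOG1, was lower in KO cells with shControl (log2 -0.93, SE 0.06) and with shMBD6 (-0.56, SE 0.06). The erythroid transcription factor genes *KLF1* (-0.52, SE 0.04, and -0.66, SE 0.04) and *GFI1B* (-0.47, SE 0.05, and -0.62, SE 0.05) were also lower with both hairpins, in the same order. *SOX6*, a co-repressor of fetal globin, was at 10.6 ± 1.15 CPM in WT shControl, 7.29 ± 0.416 in WT shMBD6, 16.9 ± 1.75 in KO shControl and 5.37 ± 0.335 in KO shMBD6. It rose in KO cells with shControl (log2 0.68, SE 0.10) but was lower in KO than in WT cells with shMBD6 (-0.44, SE 0.11), and it fell with shMBD6 in WT (-0.54, SE 0.11) and in KO cells (-1.66, SE 0.11). The RNA-binding protein gene *IGF2BP3* rose with shMBD6 in WT (0.47, SE 0.04) and KO cells (0.18, SE 0.04), as did *GATA2* (0.24, SE 0.04, and 0.40, SE 0.04), while *MBD3*, a subunit of the NuRD complex, fell in both (-0.34, SE 0.06, and -0.40, SE 0.06).

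Of 18 genes of the alpha-globin chaperone and of haem synthesis and iron uptake, 17 were tested. Between KO and WT cells 7 fell and 6 rose with shControl (median 0.01), and 8 fell and 4 rose with shMBD6 (median -0.12). With shMBD6, 8 fell and 6 rose in WT cells (median -0.11), and 8 fell and 4 rose in KO cells (median -0.18). Of all genes tested, 42.8% and 44.5% passed in either direction in the comparisons of KO with WT cells and 39.6% and 34.8% in those of shMBD6, and the share that rose was 22.2%, 22.9%, 20.4% and 18.5%. The 4 genes of the list that rose in KO cells with shMBD6 were a fraction near that of all genes. *AHSP*, whose product holds free alpha-globin in a stable form, was at 18.4 ± 2.19 CPM in WT shControl, 5.20 ± 0.555 in WT shMBD6, 1.07 ± 0.370 in KO shControl and 0.763 ± 0.149 in KO shMBD6. It fell in KO cells with shControl (log2 -4.11, SE 0.18) and with shMBD6 (-2.77, SE 0.20), and with shMBD6 in WT cells (-1.83, SE 0.15), where *HBA1* and *HBA2* rose. *ALAS2*, the erythroid enzyme of the first step of haem synthesis, was at 78.5 ± 3.95 CPM in WT shControl and 156 ± 2.26 in WT shMBD6, and at 55.8 ± 1.72 in KO shControl and 111 ± 8.07 in KO shMBD6, with log2 fold changes for shMBD6 of 0.99 (SE 0.05) in both genotypes. *UROD*, an enzyme of a later step, fell in KO cells with shControl (-0.82, SE 0.03) and with shMBD6 (-0.70, SE 0.03). *CPOX*, of a further step, rose with shMBD6 in WT (0.70, SE 0.10) and KO cells (0.46, SE 0.10), and was lower in KO cells with both hairpins (-0.42, SE 0.10, and -0.66, SE 0.09). *TFRC*, the transferrin receptor, was at 309 ± 2.41 CPM in WT shControl, 282 ± 7.63 in WT shMBD6, 457 ± 7.05 in KO shControl and 283 ± 3.37 in KO shMBD6. It rose in KO cells with shControl (0.56, SE 0.03, adjusted p = 1.53e-12), where the globin genes fell, and with shMBD6 the log2 fold change between the genotypes was 0.0036 (SE 0.03, adjusted p = 0.935). It fell with shMBD6 in WT (-0.13, SE 0.03) and in KO cells (-0.69, SE 0.03).

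Of 23 genes of the red cell membrane and surface, 22 were tested. KO cells had 13 lower and 2 higher than WT cells with shControl (median -0.30) and 17 lower and 1 higher with shMBD6 (median -0.60). With shMBD6, 8 were higher and 6 lower in WT cells (median -0.02), and 4 higher and 13 lower in KO cells (median -0.29). The shares of all genes were 20.7% lower and 22.2% higher in KO cells with shControl and 21.6% and 22.9% with shMBD6, and 19.2% lower and 20.4% higher with shMBD6 in WT cells and 16.3% and 18.5% in KO cells. The 4 higher with shMBD6 in KO cells were a fraction of the list near that share. *SLC4A1*, the anion exchanger band 3, was at 14.2 ± 0.830 CPM in WT shControl, 22.7 ± 1.21 in WT shMBD6, 1.94 ± 0.112 in KO shControl and 2.43 ± 0.767 in KO shMBD6. It was lower in KO cells with shControl (log2 -2.87, SE 0.15) and with shMBD6 (-3.23, SE 0.14) and higher with shMBD6 in WT cells (0.67, SE 0.12). *BLVRB*, a biliverdin reductase (-0.94, SE 0.03, and -0.73, SE 0.03), and *EPOR*, the erythropoietin receptor (-0.73, SE 0.09, and -0.68, SE 0.09), were lower in KO cells with shControl and with shMBD6. *EPB42*, a membrane skeleton protein gene, was higher with shMBD6 in WT (1.20, SE 0.21) and KO cells (1.20, SE 0.22). *GYPB*, a glycophorin gene, was lower with shMBD6 in KO cells (-1.81, SE 0.12) and lower in KO than in WT cells with shMBD6 (-1.76, SE 0.12), and it was also lower in KO cells with shControl (-0.42, SE 0.11) and with shMBD6 in WT cells (-0.47, SE 0.11). It shares sequence with related genes and its counts are uncertain. *CA2*, a carbonic anhydrase gene, was higher in KO cells with shControl (2.11, SE 0.73) and with shMBD6 (1.69, SE 0.52) and with shMBD6 in WT (1.89, SE 0.74) and KO cells (1.46, SE 0.51), with group means of 0.0929 to 1.06 CPM.

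**Figure D5:**
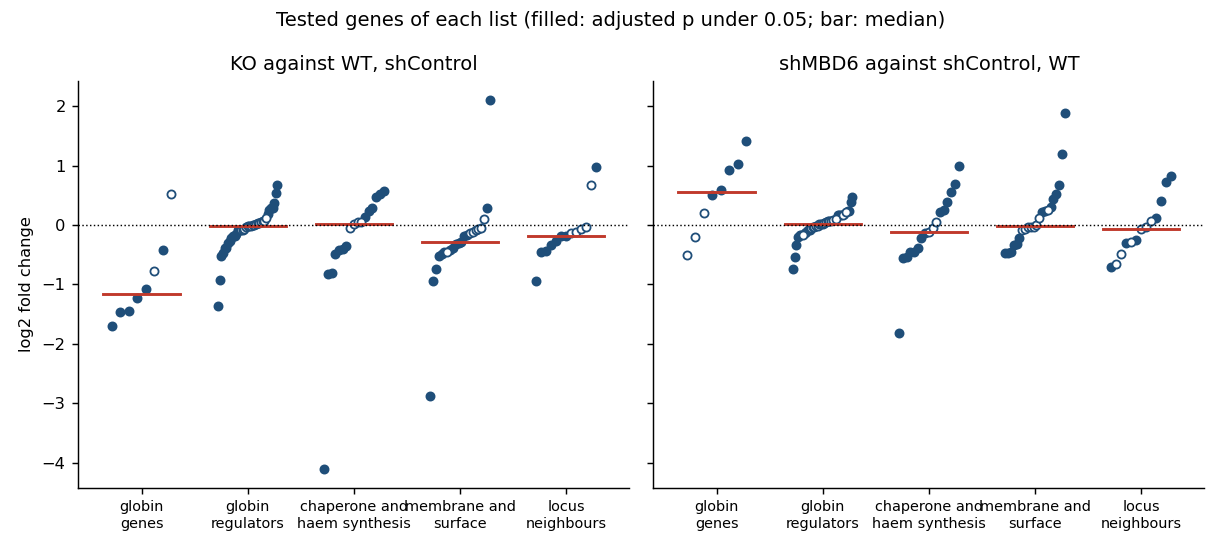
Log2 fold change (vertical axis) of the tested genes of each list for KO against WT with shControl and for shMBD6 in WT cells, with points ordered by value within a list, filled where the adjusted p was under 0.05, and red bars at the medians. The globin medians are -1.16 and 0.55, while those of the other 4 lists lie between -0.30 and 0.02 in both panels, and the lowest point, at -4.11, is *AHSP*.

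Of 18 genes beside or within the 2 clusters, 13 were tested. KO cells had 7 lower and 1 higher than WT cells with shControl (median -0.19) and 4 lower and 3 higher with shMBD6 (median -0.03), and with shMBD6 4 were higher and 3 lower in WT cells (median -0.07) and 4 higher and 5 lower in KO cells (median -0.07). Over all genes the shares lower and higher were 20.7% and 22.2%, 21.6% and 22.9%, 19.2% and 20.4%, and 16.3% and 18.5% in the order of these 4 comparisons. The 3 lower with shMBD6 in WT cells, and the 3 higher in KO than in WT cells with shMBD6, were fractions of the list near these shares. The 4 past the threshold in the other direction of each of these comparisons were somewhat larger fractions, and a list of 13 is too short to set them apart from all genes. *HBBP1*, the beta-type pseudogene between the fetal and adult genes, was at 2.18 ± 0.279 CPM in WT shControl, 1.77 ± 0.634 in WT shMBD6, 4.29 ± 0.707 in KO shControl and 1.79 ± 0.384 in KO shMBD6. It rose in KO cells with shControl (log2 0.98, SE 0.23), where *HBG1* and *HBG2* fell, and it fell with shMBD6 in KO cells (-1.25, SE 0.23), as *HBD* did. *BGLT3*, a long non-coding RNA gene next to *HBG1*, was lower in KO cells with shControl (-0.94, SE 0.29) and with shMBD6 (-1.24, SE 0.31). *OR51B5*, an olfactory receptor gene beside the beta-type cluster, was at 31.3 ± 1.29 CPM in WT shControl and 55.6 ± 1.84 in WT shMBD6, 23.1 ± 0.838 in KO shControl and 56.3 ± 18.8 in KO shMBD6, the last spread coming from 77.9 CPM in replicate 3, and was higher with shMBD6 in WT (0.83, SE 0.13) and KO cells (1.28, SE 0.14). Beside the alpha-type cluster, *NPRL3*, whose introns hold the alpha-globin enhancers, was lower in KO cells with shMBD6 (-0.60, SE 0.04), at 76.9 ± 3.69 against 117 ± 4.01 CPM, and with shControl (-0.33, SE 0.04). *RHBDF1* was lower in KO cells with shControl (-0.45, SE 0.11) and with shMBD6 (-0.42, SE 0.10) and higher with shMBD6 in WT (0.73, SE 0.11) and KO cells (0.76, SE 0.11), while *MPG*, a DNA glycosylase gene, was lower with shMBD6 in both (-0.70, SE 0.06, and -0.23, SE 0.06). *ARHGDIG* was lower with shMBD6 in KO cells (-1.70, SE 0.47), at 0.221 ± 0.0999 against 0.718 ± 0.131 CPM.

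The genes whose profiles over the 12 libraries lay nearest to those of the 3 globin genes with the most counts were ranked by the root mean square difference of mean-centred log2(CPM + 1) values, a scale that compresses genes of low level. Nearest to *HBG2* were *ERVMER34-1* (0.0879), *CBLB* (0.151), *ZNF732* (0.18), *RASGRP3* (0.191) and *GPRC5C* (0.198), and the nearest globin genes were *HBZ* at 0.162 and *HBA1* at 0.211. *ERVMER34-1*, an endogenous retroviral envelope gene, was at 2.39 ± 0.352 CPM in WT shControl, 3.88 ± 0.301 in WT shMBD6, 0.0196 ± 0.034 in KO shControl and 0.228 ± 0.0734 in KO shMBD6. *CBLB*, a ubiquitin ligase gene, was at 12.2 ± 0.679, 15.3 ± 1.57, 2.34 ± 0.136 and 3.72 ± 0.250 CPM in the same order. Nearest to *HBZ* were *LINC00839* (0.152), *GPR155* (0.209), *ERVMER34-1* (0.213), *ZNF732* (0.214) and *CRYBG3* (0.215), with *HBA1* at 0.152. Nearest to *HBG1*, whose libraries varied more, were *ATP10D* (0.172), *KLF2* (0.223), *TTYH3* (0.224), *ZNF677* (0.225) and *CCNYL2* (0.24), while *HBG2* was at 0.45.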

How the data were processed

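Gene counts of 12 K-562 libraries were used, as deposited, without normalisation, with replicates kept apart. Per the study's methods and the submitters' processing notes, the authors trimmed reads with Trimmomatic 0.39, used HISAT2 2.2.1 to place them on hg38 plus the ERCC sequences, and made the deposited counts with HTSeq 0.12.4 on GENCODE genes, so reads with several alignments were left out. The labels name polyadenylated RNA and a stranded total RNA kit, and strand use in counting is not given in the sources used here. Rows that name no gene (10.4% to 13.8% no feature, 4.01% to 4.33% ambiguous, 6.04% to 6.43% not unique) and 92 ERCC rows stayed out of the tests. The 12 mouse files were not used.

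The members and lists were chosen with earlier results of these data known. Groups came from the sample titles. One fit over all 12 libraries used edgeR 4.0.16 under R 4.3.3, with the filterByExpr filter, TMM scaling, the quasi-likelihood test and Benjamini-Hochberg adjustment over 17936 genes at a threshold of 0.05. The code was tested on simulated data. CPM and RPKM (by exon union length) were computed from the counts. No source says that replicates were separate cultures, so p-values measure the spread between these libraries. Besides the 10 globin genes and the targeted genes, the text names per list up to 3 genes per comparison with the largest change past the threshold and no overlap of groups, and the 5 genes nearest in profile to each of 3 globin genes. *BCL11A*, the untested regulator, and marker genes were named after their values were seen. Alternatives were DESeq2 1.42.0 (test and size factors), ERCC scaling, scaling without globin genes, no filter, each library left out, a replicate block, 2-group fits, copies summed and main transcript lengths. The paper's methods state that a factor from ERCC reads entered its DESeq2 size factors, so the ERCC scaling lies nearest to the study's own. DESeq2 with spike-in size factors was not run. Same-numbered libraries of different groups had deviations that correlated at -0.09 to 0.105, so the numbers were not treated as pairs. Gene models for overlaps and promoters came from the GENCODE annotation of hg38, which matched 58207 of 58721 genes. That annotation may differ in its overlaps from the release the authors counted on. Some genes and a sequence that these rules would name are not reported here.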

Additional observations from a re-analysis of the deposited data

Results flagged for a closer look

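For 4 globin genes the effect of shMBD6 differed between *TET2* KO and WT cells by a test of the difference itself (edgeR interaction contrast, adjusted over all genes). The difference of log2 fold changes, KO minus WT, was -1.29 for *HBA2*, which rose in all 3 WT shMBD6 libraries above every WT shControl library and overlapped between the KO groups. It was -0.89 for *HBA1*, with the same arrangement of libraries. It was -0.50 for *HBZ* and -0.32 for *HBG2*, which were higher with shMBD6 in both genotypes in 3 of 3 libraries, and by less in KO cells. Under spike-in scaling the 4 differences were -2.24, -1.85, -1.46 and -1.28, where the median of all genes was -0.95.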

How the results depend on the processing

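The counts of globin genes past the threshold depended most on the spike-in scaling: it gave 4 in KO against WT with shControl (2 higher, 2 lower), 5 in KO against WT with shMBD6, 7 with shMBD6 in WT cells, 5 with shMBD6 in KO cells and 7 for the difference of the shMBD6 effects. Of all 17936 genes, 16181 (15959 higher), 10747, 15475 (15437 higher), 7924 and 13321 (13265 lower) passed under it in the same order. These globin counts are therefore to be read beside a threshold that most or many genes passed. Summing the near-identical copies, which leaves 6 genes to test, gave 4, 4, 3, 3 and 3 in the same order. With a replicate block the count with shMBD6 in KO cells was 4 (*HBG1* added), and the other 4 counts kept their values of 6, 6, 5 and 4. Fits of only the 2 groups compared gave 6 with shMBD6 in WT cells, 5 higher and 1 lower, and 4 with shMBD6 in KO cells. Without the filter on low counts 4 passed with shMBD6 in KO cells, and the DESeq2 test gave 4 with shMBD6 in WT cells. The sample titles do not say whether the replicate numbers pair the samples, and they were not treated as pairs. Leaving out each library gave 6, 6 to 7, 4 to 6, 3 to 4 and 4 in the order of the comparisons. Signs turned under spike-in scaling for *HBA1* (0.030), *HBQ1* (0.83), *HBE1* (0.48) and *HBG1* (0.17) in KO against WT with shControl, for *HBQ1* (0.93) and *HBD* (0.62) with shMBD6 in WT cells, and for *HBQ1* with shMBD6 in KO cells (0.054) and in the difference (-0.88). With 1 library left out, signs turned only for values that had not passed: *HBA2* (-0.010, range to 0.29) and *HBE1* (0.15, from -0.81) with shMBD6 in KO cells, *HBE1* with shMBD6 in WT cells (-0.02 and -0.15, range to 1.18) and in KO against WT with shControl (0.20, from -1.13), and the differences for *HBQ1* (-0.0024, range to 0.17) and *HBG1* (0.015, from -0.48). The causes were not tested. Among the fold changes recomputed, 745 kept direction and side of the threshold, 15 turned sign, 16 passed newly and 6 were lost. With main transcript lengths 15 of the per-length shares moved by more than 1 SD, and *HBG1* passed *HBA1* and *HBZ* in WT shControl. Precision is limited by low counts for *HBD* and *HBB* and by the few countable positions of the copies. For *HBE1* the bases shared with the read-through gene limit what can be counted.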

Other observations

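Outside the 2 clusters, the human genome holds globin genes with other roles. Of the 4 examined, *MB*, the gene of the muscle oxygen store myoglobin, was tested, and *CYGB*, *NGB* and *ADGB* were too low. *MB* was at 0.134 ± 0.0924 CPM in WT shControl and 0.554 ± 0.0573 in KO shControl (log2 fold change 2.01, SE 0.62, adjusted p = 0.0112), and at 0.196 ± 0.153 CPM in WT shMBD6 and 0.622 ± 0.146 in KO shMBD6 (1.68, SE 0.57, adjusted p = 0.0199). *MB* was thus higher in *TET2* KO cells with both hairpins, at levels near the detection limit. Its log2 fold changes with shMBD6 were 0.50 in WT and 0.17 in KO cells, neither past the threshold.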
